A study of Homo sapiens with 6 samples.

Results

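The let-7 and miR-98 guide strands are the mature 5p miRNAs of the human let-7 family. Members were taken by name, as every 5p strand named let-7a to let-7i together with miR-98-5p, and 9 of the 413 miRNAs in the table qualified. They were hsa-let-7a-5p, hsa-let-7b-5p, hsa-let-7c-5p, hsa-let-7d-5p, hsa-let-7e-5p, hsa-let-7f-5p, hsa-let-7g-5p, hsa-let-7i-5p and hsa-miR-98-5p, written below as let-7a to let-7i and miR-98. The samples were 6 small RNA libraries of the human triple-negative breast cancer line MDA-MB-231. The vehicle-treated group (n = 3) received no Withaferin A. The WA-treated group (n = 3) received 2 µM Withaferin A (WA), a steroidal lactone of the plant Withania somnifera, for 24 h. The study's methods give 0.1% DMSO as the vehicle, whereas GEO's labels describe untreated controls without mention of a solvent. Both groups were the same line in the same medium, and a single line stands for the disease.

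A miRNA guide strand is loaded into an Argonaute protein and directs it to messenger RNAs, mostly through the seed near its 5′ end, while the other strand of the hairpin, the passenger, is mostly degraded. Members of the let-7 family share a seed, so they can act on overlapping targets, of which the RAS oncogenes, HMGA2, MYC and the RNA-binding protein LIN28 are the best known. LIN28 in turn blocks maturation of let-7 precursors, and let-7 is known as a tumour suppressor that is often low in breast cancer cells with stem-like traits.

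The mature sequences are shown because the members are told apart by few bases, all outside the seed. They are from RefSeq (GRCh38.p14), 5′ to 3′, with the seed, bases 2 to 8, in capitals.
let-7a: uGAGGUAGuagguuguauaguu
let-7b: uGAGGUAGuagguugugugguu
let-7c: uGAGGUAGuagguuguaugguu
let-7d: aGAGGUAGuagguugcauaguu
let-7e: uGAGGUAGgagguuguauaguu
let-7f: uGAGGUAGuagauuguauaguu
let-7g: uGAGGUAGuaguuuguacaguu
let-7i: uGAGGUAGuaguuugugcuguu
miR-98: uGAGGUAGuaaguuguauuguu
Every member had 22 bases and the seed GAGGUAG. Among the 368 names of the table that could be matched to a mature sequence, 0 others carried this seed. Changes are written with the let-7a base first, then the position from 1 at the 5′ end, then the member's base. A single change separated let-7a from let-7c (A19G), let-7e (U9G) and let-7f (G12A). Between let-7b and let-7c the only change was G17A, written from let-7b to let-7c. The largest number of changes from let-7a was in let-7i (G12U, A17G, U18C and A19U). The rule by which reads that match several of these miRNAs were assigned is not given in the sources used here, so part of a value may belong to a near-identical member.

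The 9 guide strands come from 12 hairpin loci, here with the mature strand in GRCh38.p14. The locus of let-7a at chr9:94175962-94175983 lies 369 bases from a let-7f locus at chr9:94176353-94176374, and let-7d at chr9:94178841-94178862 follows 2466 bases later, all in exons of the noncoding RNA MIRLET7A1HG on the plus strand. Another let-7a locus (chr22:46112752-46112773) and let-7b (chr22:46113691-46113712) lie 917 bases apart in exons of MIRLET7BHG. On the minus strand of chromosome X, let-7f (chrX:53557246-53557267) and miR-98 (chrX:53556299-53556320) lie 925 bases apart in introns of HUWE1. The remaining let-7a locus (chr11:122146568-122146589) is in an intron of MIR100HG, with miR-100 and miR-125b as partners, and let-7c (chr21:16539838-16539859) is in an exon of MIR99AHG, with miR-99a and miR-125b. The let-7e strand lies in an intron of SPACA6 (chr19:51692793-51692814), opposite an exon of the antisense RNA SPACA6-AS1, with miR-99b and miR-125a as partners. The locus of let-7g (chr3:52268336-52268357) is in an intron of WDR82, and that of let-7i (chr12:62603691-62603712) is in an intron of MIRLET7IHG. Mature let-7a and let-7f carry no sign of which of their loci a read came from.

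Values are read counts divided by a size factor of the library, called normalized values here. Summed over the 413 miRNAs, the vehicle libraries held between 710878 and 4778066 reads and the WA libraries between 156442 and 2232934. The smallest count of any member was 47 reads, for let-7d in WA 1. Vehicle 1 and WA 3 stood apart from the other libraries of their groups. Over the 413 miRNAs the Pearson correlation of log2 values was 0.987 between vehicle 2 and vehicle 3 and 0.964 between WA 1 and WA 2. It was 0.785 and 0.792 between vehicle 1 and the other vehicle libraries, and 0.630 and 0.641 between WA 3 and the other WA libraries. The correlations of WA 3 with the vehicle libraries, from 0.772 to 0.797, were higher than those with its own group, so WA 3 did not group with the libraries of its label. The guide strands differed accordingly, with a root mean squared difference of log2 values of 0.35 between vehicle 2 and vehicle 3, 0.65 between WA 1 and WA 2, and 3.96 between WA 1 and WA 3. Comparisons are therefore also given without these libraries.

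Marker miRNAs of the line and of other cells were looked up in the same table. The 4 miRNAs known to be abundant in MDA-MB-231 (miR-21, miR-221, miR-222 and miR-100) were all present, with a summed normalized value from 279999 to 586369 over the 6 libraries. Their separate levels were not steady. In WA 3 miR-21-5p was at 27029, against 134806 to 403216 in the other 5 libraries, and miR-221-3p was at 169488, against 10869 to 62289. Of 7 epithelial markers 5 were in the table, with vehicle sums between 204 and 1862 and WA sums between 800 and 1242. The sums in WA 1 and WA 2 were wholly miR-203a-3p, at 800 and 1006, which was at 12.0 to 42.0 in the vehicle group and 1.503 in WA 3. In contrast, miR-200a, miR-200b, miR-200c and miR-429 were at 0 in WA 1 and WA 2, where a count of 0 allows a normalized value of up to 17.4 and 5.36 (3 reads). Of 5 markers of fibroblasts and stroma 4 were in the table. Their sum was 16.3, 62.5 and 51.0 in vehicle 1 to 3, and 6255, 8053 and 133 in WA 1 to 3, mostly miR-199a-3p and miR-199b-3p, with miR-145 at 11.6 and 21.4 in WA 1 and WA 2. Of 6 blood markers only miR-486-5p was in the table, at 492 to 911 in the vehicle group and at 0, 5.36 and 1223 in WA 1 to 3. The liver marker miR-122-5p was between 0 and 14.3 in all libraries. These levels changed between libraries along with several members below, and their part in the members' values was not tested.

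The 9 guide strands together took a larger share of the reads in the WA-treated cells. Of the reads of the 413 miRNAs in the table they held 12.3%, 14.6% and 12.0% in vehicle 1 to 3, and 19.8%, 21.9% and 26.5% in WA 1 to 3. Per the paper the 413 are the miRNAs found in both groups. Some of the 413, such as miR-1275 and miR-504-5p, were nevertheless at 0 in every WA library. Reads of some miRNAs found in a single group are therefore inside these shares. Reads of miRNAs that are not among the 413 are outside them, and their amount is not known here. The groups did not overlap on this scale, with a mean of 13.0% ± 1.41 (SD, n = 3) in the vehicle group and 22.7% ± 3.45 (SD, n = 3) in the WA group, a ratio of 1.75. The widest exact 95% binomial interval was that of WA 1, from 19.56% to 19.96%, and such intervals cover counting error only. In normalized values the sum was 157428 ± 40353 (SD, n = 3) against 281729 ± 142844 (SD, n = 3), a ratio of 1.79, but here the groups overlapped, since the sum of 179216 in WA 1 was below the 199273 of vehicle 2. The difference of mean log2 sums in normalized values was 0.76, and 0.37 without WA 3, the lowest value on leaving out single libraries. Without vehicle 1 and WA 3 together it was 0.18 in normalized values. The difference of mean log2 shares of the library was then 0.65, against 0.80 with all libraries. A share of reads rises when other miRNAs fall, and in bulk RNA fewer cells of a type and less RNA per cell cannot be told apart.

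**Figure D1:**
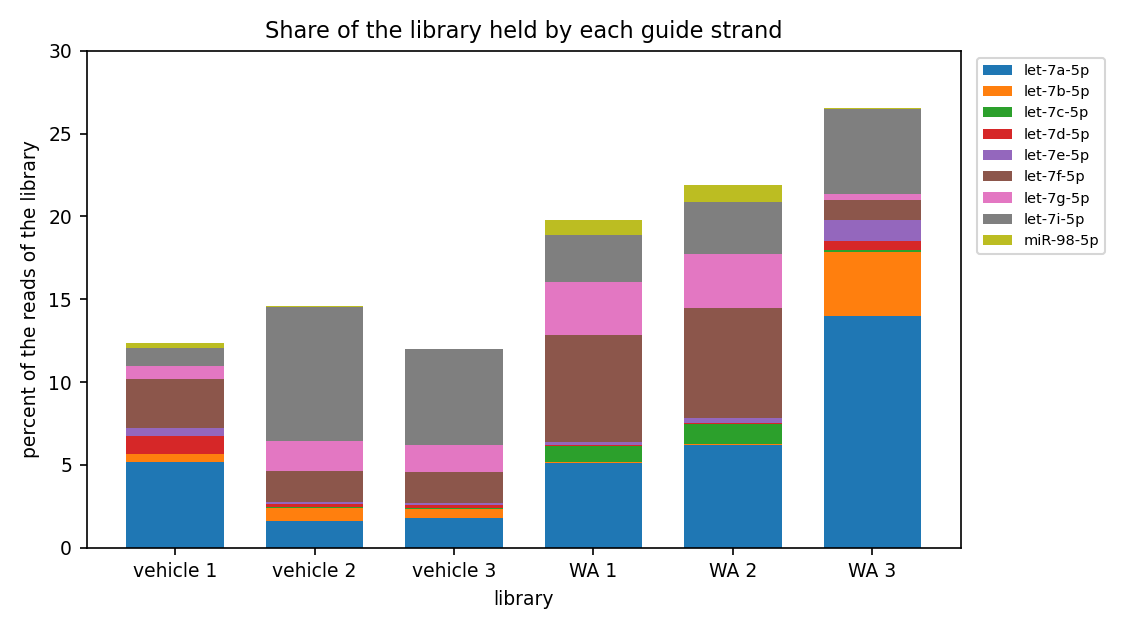
Share of the reads of the 413 miRNAs in the table (percent, y axis) held by each of the 9 guide strands, stacked, in each of the 6 libraries (x axis). The stacks reach 12.0% to 14.6% in the vehicle libraries and 19.8% to 26.5% in the WA libraries, and the leading member is let-7i in vehicle 2 and 3, let-7f in WA 1 and 2, and let-7a in vehicle 1 and WA 3.

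The make-up of the family differed more between libraries than its total. In vehicle 2 and vehicle 3, let-7i was the leading member, with 55.7% and 48.2% of the summed guide strands. In WA 1 and WA 2 it held 14.2% in each, and let-7f led with 32.9% and 30.4%, followed by let-7a with 25.9% and 28.3%. The libraries that stood apart had let-7a in the lead, with 42.1% in vehicle 1 and 52.8% in WA 3. All 9 members had the same rank in WA 1 and WA 2, from let-7f at the top to let-7d at the bottom. By group means the order was let-7i, let-7a, let-7f, let-7g, let-7b, let-7d, let-7e, miR-98 and let-7c in the vehicle group, and let-7a, let-7f, let-7i, let-7g, let-7b, let-7e, let-7c, miR-98 and let-7d in the WA group. In neither order was a neighbouring pair separated by its ranges over the 3 libraries. Within libraries, the order held in all 3 vehicle libraries for let-7f over let-7g, let-7g over let-7b, let-7d over let-7e and let-7e over miR-98. In the WA group it held in all 3 only for let-7c over miR-98. The other neighbouring pairs changed order between libraries, so the full orders are not resolved. Counting error was small beside this, at no more than 0.53 percentage points to either side for any member's share.

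**Figure D2:**
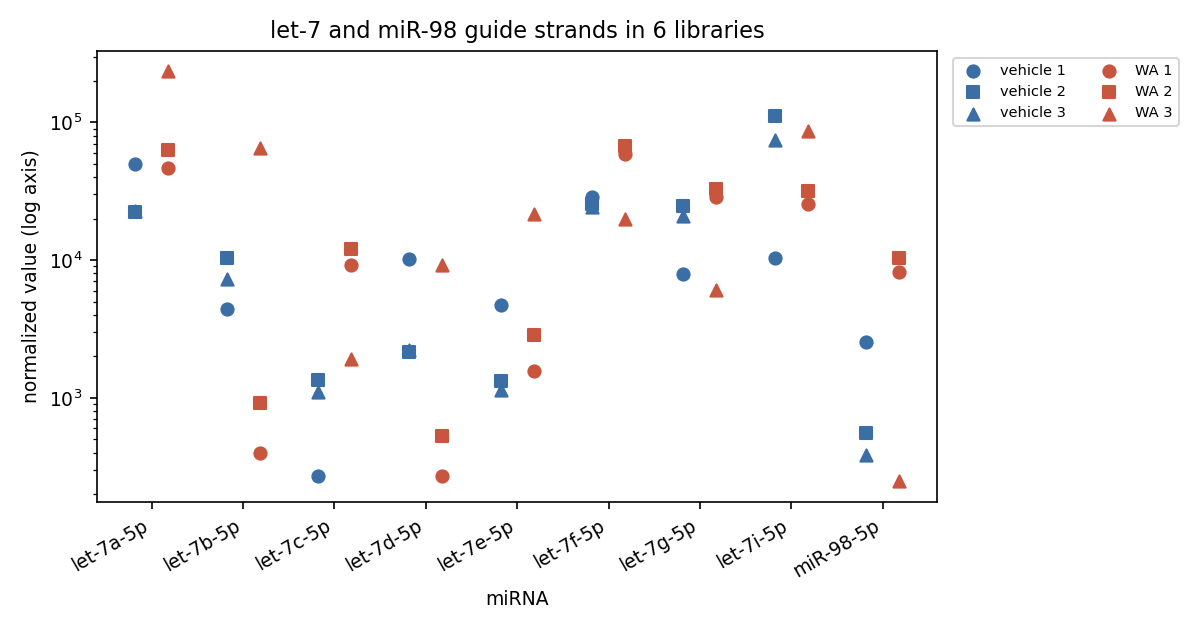
Normalized value (y axis, log scale) of each guide strand (x axis) in the 6 libraries, with vehicle in blue, WA in red and the replicate number as the shape. The 3 WA points of let-7c lie above its 3 vehicle points, and for the other 8 members the groups overlap.

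In the comparison of WA with vehicle, limma's moderated test on log2(normalized value + 1), which understates fold changes of low values, was fitted to all 327 miRNAs that had 3 or more libraries with a value of 10 or higher. All 9 members passed that filter, and 0 of 9 reached an adjusted p under 0.05 (Benjamini-Hochberg over the 327), with 1 at an unadjusted p under 0.05. Over all miRNAs tested 18, or 5.50%, were called, 1 of them higher and 17 lower in WA. The estimated log2 differences were positive for 6 of the 9 members, with a median of 0.72 beside -0.91 over all 327. That median over all miRNAs depends on scaling and was -0.64 with upper-quartile scaling, where the members' median was 0.99. Groups of 3 against 3 cannot give an exact permutation p below 0.1, which let-7c reached, and the other 8 members were between 0.2 and 1. Only let-7c had groups that did not overlap, 1 of 9 members, against 27.2% of all miRNAs tested, of which 7.65% had WA above and 19.6% had WA below.

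The member with the largest difference was let-7c, a strand from the MIR99AHG locus. Its normalized values were 271, 1343 and 1097 in vehicle 1 to 3, and 9160, 12101 and 1926 in WA 1 to 3. All 3 WA values were above all 3 vehicle values, though WA 3 was nearer to the vehicle libraries than to WA 1 and WA 2. The log2 difference was 3.02 (SE 0.97) with an adjusted p of 0.118 by limma, and the adjusted p ran from 0.0845 to 0.186 under other scalings, pseudocounts, filters and models. On leaving out single libraries the log2 difference stayed between 2.30 and 3.84 and the adjusted p ran from 0.0129 without WA 3 to 0.501. Its values were high in the libraries with high stromal markers (sums of 6255 and 8053), and their part in the value was not tested.

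A strand that differs from it by a single base, let-7b, had another profile. It stood at 4422, 10398 and 7266 in the vehicle group, and at 394, 924 and 64669 in the WA group. WA 1 and WA 2 were below every vehicle library and WA 3 above every one of them. The log2 difference of -1.27 (SE 1.77, limma adjusted p = 0.633) averages these opposite values. Per read of let-7b there were 0.0613, 0.129 and 0.151 reads of let-7c in vehicle 1 to 3, and 23.2, 13.1 and 0.0298 in WA 1 to 3. This ratio of a pair with 1 differing base was thus above 1 in WA 1 and WA 2 and below 1 in the other 4 libraries. The pair's profiles, compared as log2 values centred on their mean over the 6 libraries, had a root mean squared difference of 3.77, the second largest of the 36 pairs of members.

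Among the strands of the chromosome 9 cluster, let-7d had the lowest estimate. Its normalized values were 10096, 2165 and 2207 in vehicle 1 to 3, and 272, 527 and 9219 in WA 1 to 3. WA 1 and WA 2, which rest on 47 and 295 reads, lay below every vehicle library, while WA 3 lay near vehicle 1. The log2 difference was -1.73 (SE 1.38, limma adjusted p = 0.443). The ratio of let-7d to let-7a reads was 0.202, 0.0972 and 0.0969 in the vehicle group and 0.00588, 0.00842 and 0.0393 in the WA group, so that it was lower in all 3 WA libraries than in any vehicle library. In the other ratios computed (let-7c to let-7b, miR-98 to let-7f, let-7f to let-7a and let-7g to let-7i) the groups overlapped. No background of such ratios was computed.

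The most abundant strand by WA mean was let-7a, which is made from 3 loci. It was at 49995, 22283 and 22770 in vehicle 1 to 3 and at 46378, 62594 and 234802 in WA 1 to 3. WA 2 and WA 3 were above all vehicle libraries, and WA 1 was just below vehicle 1. The log2 difference was 1.58 (SE 0.91, limma adjusted p = 0.320).

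The profile most like that of let-7a was let-7e, with a root mean squared difference of 0.54, the smallest of the 36 pairs. It stood at 4694, 1333 and 1142 in the vehicle group and at 1554, 2878 and 21700 in the WA group. Vehicle 1 was above WA 1 and WA 2, and WA 3 was above all other libraries. Its log2 difference was 1.25 (SE 1.11, limma adjusted p = 0.471).

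Strands let-7f and let-7g formed the next closest pair, with a root mean squared difference of 0.68, although they come from separate chromosomes. The values of let-7f were 28476, 25652 and 24077 in vehicle 1 to 3, and 58970, 67211 and 19746 in WA 1 to 3. For let-7g they were 7888, 24543 and 20962 in vehicle 1 to 3, and 28812, 32982 and 6014 in WA 1 to 3. In both, WA 1 and WA 2 were the highest libraries and WA 3 the lowest. The log2 differences were 0.72 (SE 0.77, limma adjusted p = 0.562) for let-7f and 0.16 (SE 0.91, limma adjusted p = 0.912) for let-7g, and that of let-7g was negative without vehicle 1, WA 1 or WA 2.

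The neighbour of let-7f on chromosome X, miR-98, was the member whose profile lay farthest from that of the family sum. It was at 2553, 554 and 383 in the vehicle group and at 8215, 10407 and 247 in the WA group. WA 1 and WA 2 were above every vehicle library, and WA 3 was below every one. The log2 difference was 1.76 (SE 1.52, limma adjusted p = 0.461). There were 0.0897, 0.0216 and 0.0159 reads of miR-98 per read of let-7f in vehicle 1 to 3, and 0.139, 0.155 and 0.0125 in WA 1 to 3.

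The last member, let-7i, led the family in vehicle 2 and 3 and differed least between the groups. Its normalized values were 10360, 111003 and 74352 in the vehicle group, and 25462, 31456 and 86567 in the WA group. Vehicle 1 was the lowest of all 6 libraries and vehicle 2 the highest, so the WA values lay inside the vehicle range. The log2 difference was -0.10 (SE 1.098, limma adjusted p = 0.9495), and its sign changed with upper-quartile scaling and on leaving out vehicle 2, vehicle 3, WA 1 or WA 2.

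Without WA 3, 4 of the 9 members were called. Strands let-7c (log2 difference 3.84, limma adjusted p = 0.0129) and miR-98 (3.50, 0.0250) were higher in WA, and let-7b (-3.52, 0.00633) and let-7d (-3.26, 0.0259) were lower. In that fit 41.8% of the 311 miRNAs tested were called, so the members' count was near the background. With vehicle 1 left out as well, a choice made after the values were seen, 8 of 9 members were called, 5 higher (let-7a, let-7c, let-7e, let-7f and miR-98) and 3 lower (let-7b, let-7d and let-7i), among 69.0% of 232 miRNAs. With 2 libraries a group, that fit pooled a single trend of variance over all miRNAs.

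**Figure D3:**
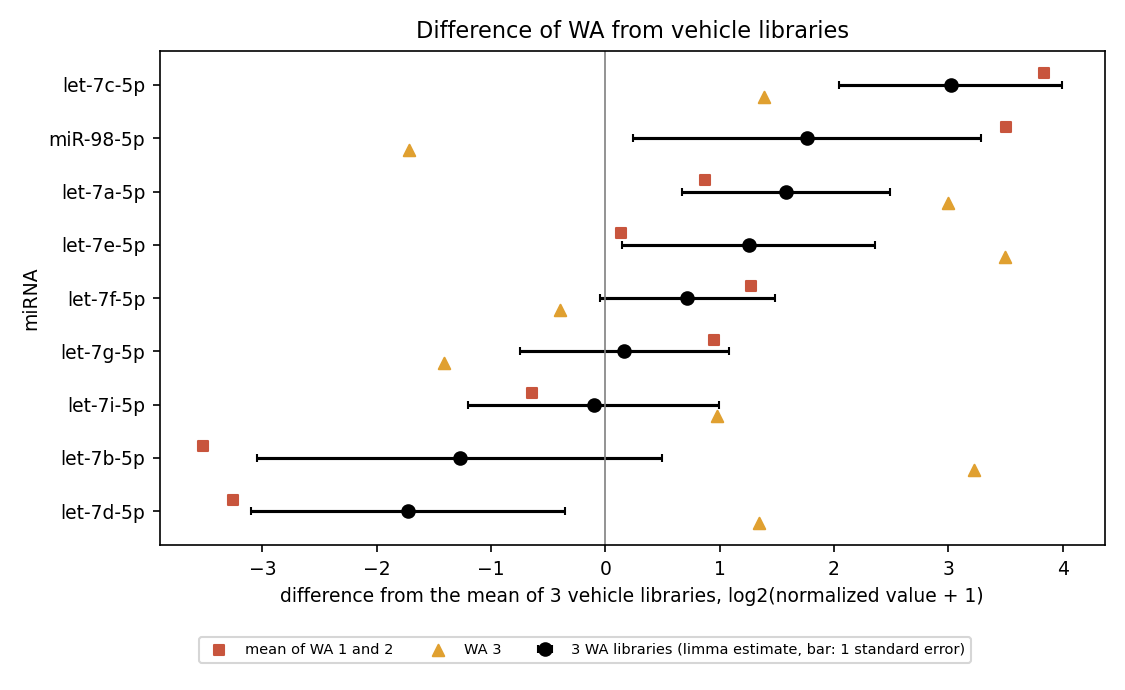
Difference in log2(normalized value + 1) from the mean of the 3 vehicle libraries (x axis) for each guide strand (y axis), as the limma estimate over 3 WA libraries with 1 standard error (black), the mean of WA 1 and 2 (red squares) and WA 3 (yellow triangles). The squares and triangles lie on opposite sides of 0 for let-7b, let-7d, let-7f, let-7g, let-7i and miR-98.

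Against the mean of all 3 vehicle libraries, WA 3 and the mean of WA 1 and WA 2 differed in sign for 6 members. For let-7b the values were -3.52 in WA 1 and 2 and 3.22 in WA 3, and for miR-98 they were 3.50 and -1.72, on the log2 scale. The signs were the same, and positive, for let-7a, let-7c and let-7e. With GC content, which ran from 31.8% in let-7f and miR-98 to 45.5% in let-7b, the members' differences in WA 1 and 2 had a Pearson correlation of -0.63 (Spearman -0.67, n = 9). Those of WA 3 had 0.72 (Spearman 0.71, n = 9). Over the 295 tested miRNAs with a sequence the Pearson values were -0.30 and -0.17, all points sharing the same libraries and hence the same library preparation. The correlation over the members in WA 3 thus had the opposite sign to that over all miRNAs, and the part of GC content in the members' values was not tested.

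Pairs of members that differ by the same number of bases had unlike distances between their profiles. The 4 pairs that differ by 1 base had root mean squared differences of 0.54 (let-7a and let-7e), 1.38 (let-7a and let-7f), 2.02 (let-7a and let-7c) and 3.77 (let-7b and let-7c). The median was 1.70 over these 4 pairs, 1.88 over 10 pairs with 2 differing bases, 2.30 over 11 pairs with 3 and 2.09 over 9 pairs with 4, and the lone pairs with 5 and 6 differing bases were at 1.92 and 2.21. The medians thus rose from 1 to 3 differing bases and were lower beyond that, while the range at each number from 1 to 4 was wider than the gaps between the medians. No test of the relation was run. The largest difference of all was 4.43, between let-7b and miR-98, which differ at 3 bases. Pairs share members and libraries, so these values are a description.

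**Figure D4:**
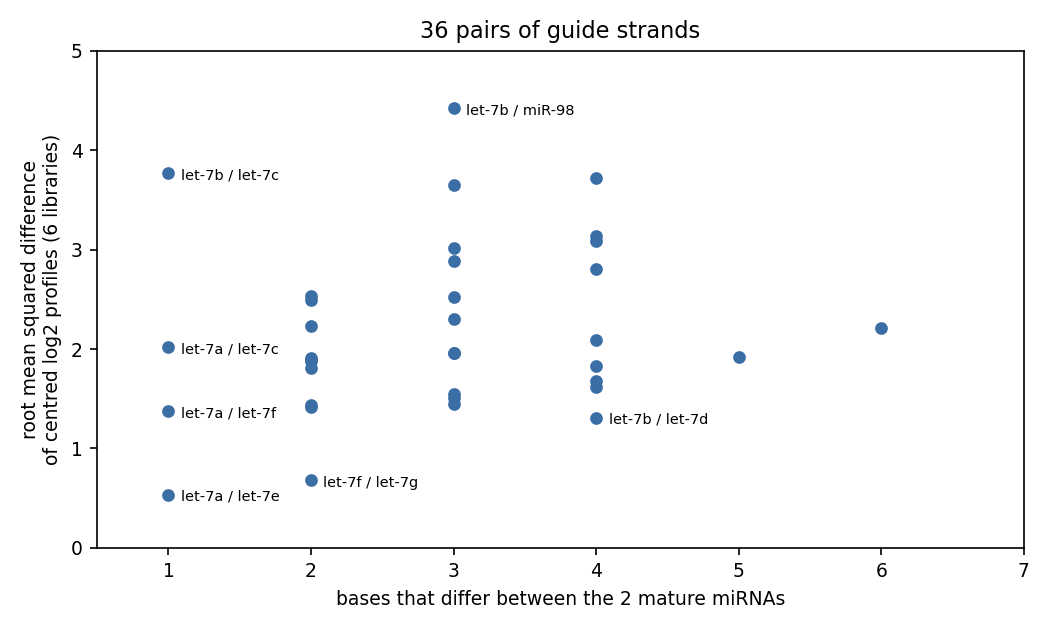
Root mean squared difference of centred log2 profiles over the 6 libraries (y axis) against the number of bases that differ (x axis) for the 36 pairs of guide strands, 1 point a pair. Pairs with 1 differing base spread from 0.54 (let-7a and let-7e) to 3.77 (let-7b and let-7c).

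The passenger strands of the same hairpins were mostly estimated lower in WA, as were most miRNAs. Of 12 listed names 10 were in the table and 9 were tested, and the median log2 difference was -1.31 beside -0.91 over all miRNAs. Of the 9, 0 were called higher and 1 lower, against a background of 5.50%. The called strand was let-7d-3p, at 3539, 907 and 1847 in vehicle 1 to 3 and at 34.8, 28.6 and 142 in WA 1 to 3, with a log2 difference of -5.09 (SE 0.96, limma adjusted p = 0.0300). It was low in WA 3 too, where its guide was high. The call was lost with upper-quartile scaling (log2 difference -4.82, adjusted p = 0.0561) and with a filter of 10 in every library (-5.09, 0.0503), both by limma. It was also lost on leaving out any of the 3 vehicle libraries, WA 1 or WA 2, with let-7d-3p log2 differences between -5.58 and -4.60 and limma adjusted p between 0.0868 and 0.501. In each fit that lost the call, 0 of all miRNAs tested were called. The strands let-7b-3p and let-7f-1-3p also had all WA values below all vehicle values but did not reach the threshold, which makes 3 of the 9 tested, against 19.6% of all miRNAs.

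Of 11 names of other miRNAs from the same clusters 10 were in the table and tested, with a median log2 difference of 0.60 beside -0.91 over all miRNAs. Of the 10, 0 were called (1 at an unadjusted p under 0.05), against 5.50% of all miRNAs. In 2 of the 10, miR-100-3p and miR-125a-3p, all WA values were above all vehicle values, against 7.65% of all miRNAs. The partner of let-7c, miR-99a-5p, stood at 90.7, 14089 and 10558 in vehicle 1 to 3 and at 11786, 12905 and 385 in WA 1 to 3. It was thus as high in vehicle 2 and 3 as in WA 1 and 2, whereas let-7c was lower in vehicle 2 and 3 than in WA 1 and 2. Other strands differed from miR-99a-5p. The listed partner miR-125b-2-3p was at 0, 312 and 233 in vehicle 1 to 3 and at 817, 854 and 24.8 in WA 1 to 3. The passenger let-7c-3p was at 0, 32.3 and 62.0, and at 255, 159 and 6.76. Both were highest in WA 1 and WA 2, as let-7c was, while miR-125b-5p was highest in WA 3.

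By the rule for likeness, the 5 miRNAs outside the family whose centred log2 profile was nearest to the summed guide strands were miR-125a-3p (root mean squared difference 0.18), miR-28-3p (0.21), miR-222-5p (0.36), miR-140-3p (0.38) and miR-425-3p (0.40). The median over the 318 miRNAs compared was 1.97. The members themselves were farther from their own sum, from 0.78 for let-7a to 2.41 for miR-98. Values of miR-28-3p were 650, 876 and 626 in vehicle 1 to 3 and 910, 897 and 2615 in WA 1 to 3, so that WA lay above vehicle in all libraries. Its log2 difference of 0.86 (SE 0.70) had a limma adjusted p of 0.445. WA also lay above vehicle for miR-125a-3p, while the groups overlapped for miR-222-5p, miR-140-3p and miR-425-3p. All 5 were picked by likeness to the sum over these same libraries, so their directions are not independent of that choice.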

How the data were processed

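All 6 small RNA libraries of MDA-MB-231 cells entered the comparison, 3 in each group. Per the methods and labels, the authors trimmed reads (Trim Galore), aligned them with Bowtie to GRCh38.p10, discarded reads of rRNA, tRNA and similar RNAs, compared the remainder with mature miRNAs by BLAST and normalized with DESeq2. The deposited values are a signal, reads divided by a library's size factor, for 413 miRNAs. Further columns deposited by the authors hold their own comparison (p-values raw and adjusted, the log2 fold change and its linear ratio) and were not used.

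Within a library all values were multiples of 1 step (100% within 0.01 steps), and size factors computed from the steps as median of ratios equalled the inverse steps. Steps are given as reads. The study calls the 3 sequenced replicates of each group independent, and whether they came from separate cultures is not stated further, so p-values measure the spread between these libraries. Changes were tested with limma 3.58.1 in R 4.3.3 on log2(value + 1), with variance trend, two-sided, on miRNAs that had 3 or more libraries with a value of 10 or higher. The planned count tests were replaced by this fit. A simulated comparison of WA with vehicle with log2 changes of 3 had 78 of 78 changed miRNAs called, and 2 of 271 unchanged ones. The simulated libraries of a group shared the same means and a fixed spread, and none stood apart as vehicle 1 and WA 3 did. These counts thus check the fit and do not give its power in the real libraries. Fixed alternatives were other scalings, pseudocounts, filters, no trend, a replicate block and each library left out. A count of 0 allows up to 3 reads. Sequences and loci were from RefSeq (GRCh38.p14) and gene context from GENCODE. Other steps were run in Python 3.11.15 with scipy 1.17.1, and figures with matplotlib 3.10.9. The names given were the 9 members, their passengers, cluster partners, miRNAs with the same seed, and the 5 nearest profiles. Members and lists were chosen with earlier results of these data known.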

Additional observations from a re-analysis of the deposited data

How the results depend on the processing

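The count of members called was 0 under every scaling, pseudocount, filter, model and single omission tried except without WA 3, where it was 4 (leaving out single libraries gave 0 to 4), and 8 without vehicle 1 and WA 3 together, an alternative chosen after seeing the data. The difference of mean log2 sums, 0.76, was between 0.37 (without WA 3) and 1.03 on leaving out single libraries, and 0.18 without both. It was 0.80 with total-count, 1.03 with upper-quartile and 0.80 with TMM scaling, and the groups did not overlap with total-count and upper-quartile scaling. Directions changed for 3 members. The log2 difference of let-7i was 0.17 with upper-quartile scaling and between -1.14 and 0.57 on leaving out single libraries. That of let-7g was between -0.34 and 0.95, and that of let-7b between -3.52 and 0.16, in the same omissions. Their cause was not tested. The other 6 members kept their direction. The differences between the groups in the members' shares of the family changed sign in 6 of the 54 omissions. Over all miRNAs the calls were 18, beside 25 with total-count, 0 with upper-quartile and 17 with TMM scaling, 7 with a pseudocount of 0.1, 7 with 10, 53 with no filter, 0 with a value of 10 in every library, 0 in 5 of the single omissions and 130 without WA 3. Libraries with the same number did not deviate together (correlations of -0.07, 0.06 and -0.09), and with the replicate number as a block 0 members and 24 miRNAs were called. Count tests were not run. WA 1, with 156442 reads over the 413 miRNAs, limits the precision of the lowest members.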

Other observations

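The ratio of guide to passenger reads differed between members and libraries. For let-7d it was 2.85, 2.39 and 1.19 in vehicle 1 to 3 and 7.83, 18.4 and 64.9 in WA 1 to 3. All WA ratios of let-7d were above all vehicle ratios, with WA 3, where the guide was high, the largest. The passenger of let-7d had 6, 16 and 189 reads in WA 1 to 3, so the first of these ratios has a denominator near the 3 reads that a count of 0 allows. For let-7f, with both of its passengers summed, the ratio was 210, 215 and 133 in the vehicle group and 848, 672 and 1011 in the WA group, again without overlap. Its passengers let-7f-1-3p and let-7f-2-3p had only 12 and 0 reads in WA 1, and 26 and 0 in WA 3. For let-7i the order was the opposite, with 1912, 2816 and 1802 in the vehicle group and 399, 880 and 510 in the WA group. The passenger of let-7i had only 4 reads in vehicle 1 and 11 in WA 1, so that the order of these libraries rests on few reads. These 3 were the members, of the 8 with a passenger in the table, named here after their values were seen because their groups did not overlap. The share of such ratios over other guide and passenger pairs was not computed, so 3 of 8 has no background of its own. Among single miRNAs tested, 27.2% had groups that did not overlap. Of the other 5, the ratios of let-7b ran from 9.71 to 2326 and those of miR-98 from 19.9 to 94.0. A passenger count of 0 left no ratio for let-7c in vehicle 1 and for let-7e in WA 1.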
